A study of Homo sapiens with 4 samples.

Results

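Human cells carry a small circular genome inside their mitochondria. It encodes 13 proteins, all of them subunits of the oxidative phosphorylation complexes, together with 2 ribosomal RNAs and 22 transfer RNAs. The proteins that copy, transcribe and translate it are encoded in the nucleus and imported. The 33 genes described here are the 13 mitochondrially encoded messengers and 20 nuclear genes of mitochondrial DNA upkeep, transcription, RNA stability and translation. They were chosen by symbol for their role, with no threshold on their values, although earlier results of these data were known when the list was drawn up. All 33 were found among the 57820 gene IDs of the complete expression files, and 31 of them were among the 10771 genes tested. MT-ATP8 and POLG2 were listed in 3 of the 4 files and were not tested.

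The libraries came from MOLM-13, a human acute myeloid leukaemia cell line. The GADD45g induced group (n = 2 libraries) was given doxycycline at 1 mg/ml, as labelled, for 4 days, and the untreated control group (n = 2 libraries) received none. Titles name the gene GADD45g, written GADD45G for the human gene below, and the series describes the experiment as performed in 2 biological replicates. The sources used here do not give the promoter, vector or clonal state of the line, and cells given doxycycline but no construct were not analysed here. Doxycycline binds the bacterial type of ribosome and can act on the mitochondrial ribosome, so the drug and the expressed gene cannot be told apart as sources of any difference below.

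GADD45G was at 3236 and 2118 RPKM (reads per gene length and library depth) in induced libraries 1 and 2, against 10.5 and 0.289 RPKM in control libraries 1 and 2, so the induced labels held. The library depths recovered from the values ranged from 15683931 to 18895470 reads. Of 9 myeloid markers, 6 had a mean of at least 1 RPKM, and MPO, FLT3 and CD14 did not. The summed myeloid markers were at 434 and 397 RPKM in induced libraries and 1296 and 1004 RPKM in control libraries, most of it LYZ, the lysozyme gene of myeloid cells. Of the 6 tested, 1 was called lower, 1 higher, and 4 were not called. LYZ was the lower one (log2 change -1.98, limma adjusted p = 0.000326). Without LYZ the other 8 summed to 166 and 155 RPKM in induced libraries and 123 and 136 RPKM in control libraries. ITGAM, an integrin of myeloid cells, was called higher (log2 change 0.79, limma adjusted p = 0.0268), though not without induced 1 (0.17), induced 2 (0.0637) or control 1 (0.148). Libraries numbered 1 stood apart in both groups. The 7 epithelial markers summed to 40.8 RPKM in induced 1 and 41.7 RPKM in control 1, but to 0.242 RPKM in induced 2 and 0.330 RPKM in control 2, where KRT19 and EPCAM were listed at 0. The summed fibroblast markers were at 4.75 and 4.39 RPKM in induced libraries and 3.03 and 1.95 RPKM in control libraries, most of it FAP. Results are therefore also given between the libraries numbered 1, which carried the epithelial reads in both groups, and between those numbered 2, which did not. The part of these markers in the results was not tested.

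Members that passed the test were lower in GADD45g induced cells, and 13 of 31 did not pass. Of the 31 tested members, 18 passed the test lower (limma, adjusted p under 0.05) and 0 passed it higher. Among all tested genes 26.7% were called lower and 12.2% higher, so the lower calls were more frequent among the members than in the background. The median log2 change of the members, on log2(RPKM + 1), was -0.84, against -0.21 over all 10771 genes. In 27 of the 31 both induced libraries lay below both control libraries, which held for 45.8% of all tested genes. The induced libraries were lower than their same-numbered control in both comparisons for 29 members. The share of all tested genes for which this held was not counted, and 62.1% of them had a negative change in the main fit. A TMM scaling, which sets the bulk of genes equal between libraries, moved the median of all genes to 0.02 and the members' median to -0.62. After it 12 members were called lower and 0 higher, beside 18.8% of all genes lower and 18.3% higher. Calls were fewer with any 1 library left out, among the members and among all tested genes. The members' median log2 change was -0.91 without induced 1, -0.93 without induced 2, -0.96 without control 1 and -0.89 without control 2. Over all tested genes it lay between -0.225 and -0.209 in these fits. All of the tested values are relative to each library's total reads, and fewer cells of a type and less RNA per cell cannot be told apart in bulk samples.

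**Figure D1:**
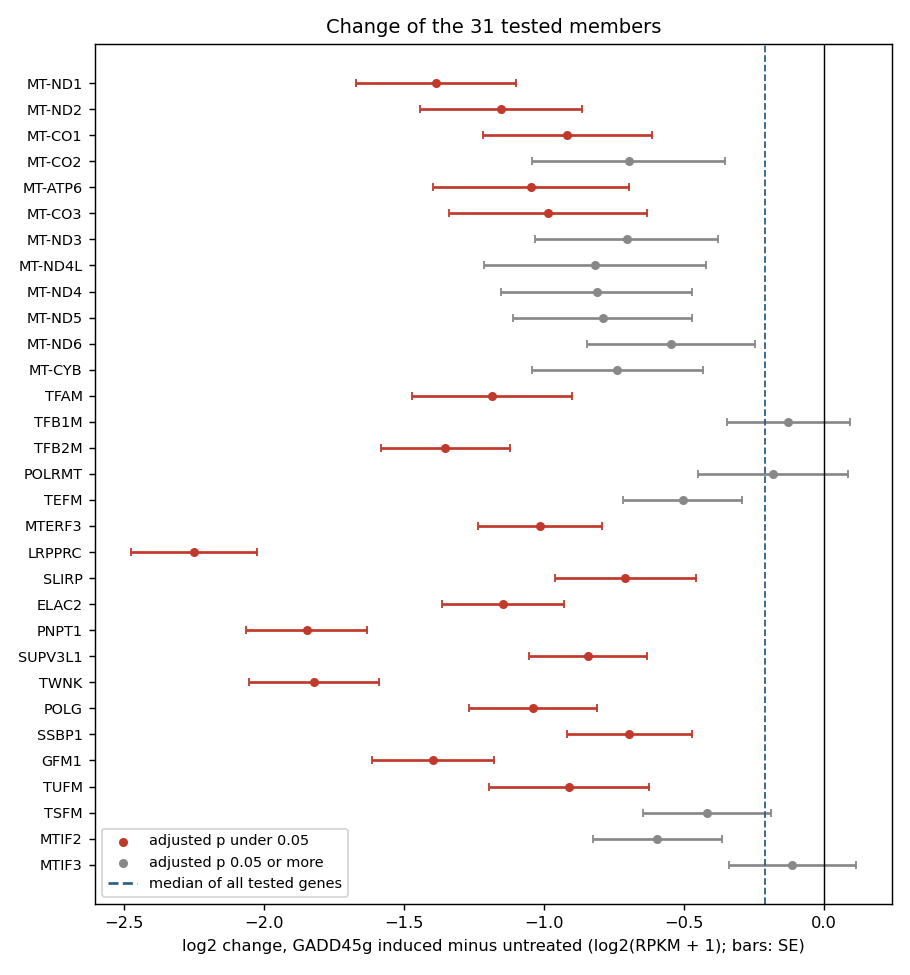
Log2 change (induced minus untreated, on log2(RPKM + 1); bars are the SE of the limma fit) of the 31 tested members. The 18 called members are in red and all lie left of 0, from LRPPRC at -2.25 to SSBP1 at -0.70; the dashed line is the median of all tested genes at -0.21.

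The messengers of the mitochondrial genome were at a lower summed level in induced cells. Their summed level, over the 12 messengers in all 4 files, was 27979 and 34310 RPKM in induced libraries and 52216 and 61004 RPKM in control libraries. The group means were 31144 ± 4477 RPKM in induced and 56610 ± 6214 RPKM in control cells (SD, n = 2 each), a ratio of 0.550. Between libraries numbered 1 the ratio was 0.536, and between those numbered 2 it was 0.562. As a share of all recovered reads, the 12 messengers took 2.74% and 3.37% in induced libraries and 5.14% and 6.02% in control libraries. No p is given for a sum over chosen members; the smallest that an exact permutation of 2 against 2 libraries allows is 0.333. After TMM scaling the ratio of the sums was 0.665. Of the 12 messengers 5 were called lower, beside 26.7% of all genes, with a median log2 change of -0.82. All 12 had a negative change in both same-numbered comparisons, a share that was not counted over all tested genes. After TMM scaling 2 of the 12, MT-ND1 and MT-ND2, were called lower, a share no higher than the 18.8% of all genes called lower there. Without the filter on low values 0 of the 12 were called, and with voom on recovered reads 11 of the 12 were. With a replicate block, which fits the library number as a term, 12 of the 12 were called. The labels do not say that the numbers mark a pairing.

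**Figure D2:**
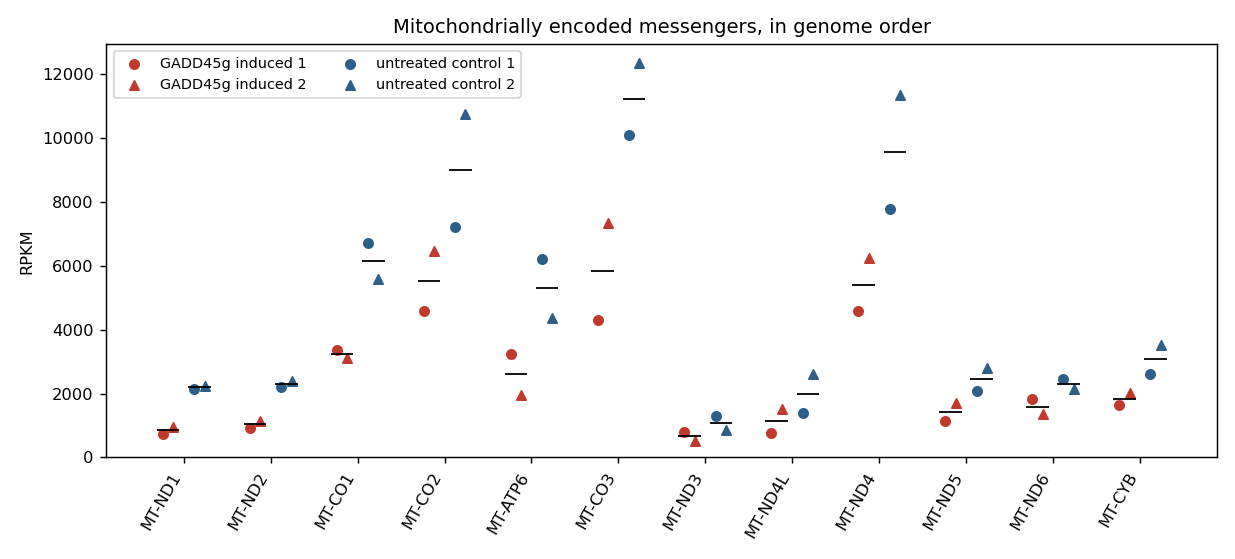
RPKM of the 12 mitochondrially encoded messengers in each library, in the order of their genes on the mitochondrial genome; black bars are group means. Both induced libraries (red) lie below both control libraries (blue) for every gene shown except MT-ND4L, beside 45.8% of all tested genes. For MT-ND4L induced 2 (1510 RPKM) is above control 1 (1399 RPKM).

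Complex I, the NADH dehydrogenase that feeds electrons into the chain, takes 7 of its core subunits from the mitochondrial genome. MT-ND1 (ENSG00000198888.2), the first messenger after the ribosomal RNAs, was at 749 and 947 RPKM in induced libraries, against 2152 and 2250 RPKM in controls. The groups did not overlap, and its log2 change was the largest decrease of the 12, at -1.38 (SE 0.29, limma adjusted p = 0.00319). Its neighbour MT-ND2 was at 915 and 1151 RPKM in induced libraries and 2194 and 2379 RPKM in controls. Here too the groups were clearly separated, with a log2 change of -1.15 (SE 0.29, limma adjusted p = 0.00906). MT-ND1 passed the limma test with each library left out, at adjusted p between 0.0144 and 0.0442, but not without the filter on low values (0.202). MT-ND2 did not pass it without induced 1 (adjusted p = 0.0979), without control 1 (0.0505) or without control 2 (0.0603).

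The other complex I messengers had negative changes that did not pass the test in the main fit, though they passed it with the replicate block. MT-ND4 was at 4588 and 6231 RPKM in induced libraries and 7773 and 11345 RPKM in controls, with a log2 change of -0.81 (limma adjusted p = 0.0814). MT-ND4L, which lies on the same transcript as MT-ND4 and shares 7 bases with it, was at 776 and 1510 RPKM in induced libraries and 1399 and 2605 RPKM in controls. It was the 1 messenger whose groups overlapped (log2 change -0.82, limma adjusted p = 0.128). MT-ND5 was at 1147 and 1709 RPKM in induced libraries and 2095 and 2801 RPKM in controls (log2 change -0.79, limma adjusted p = 0.0734). MT-ND3, the shortest after MT-ND4L among those tested, was at 803 and 520 RPKM in induced libraries and 1289 and 863 RPKM in controls (log2 change -0.71, limma adjusted p = 0.111). MT-ND6 is the only messenger transcribed from the light strand, opposite to the other messengers. It was at 1828 and 1352 RPKM in induced libraries and 2452 and 2148 RPKM in controls, and its log2 change of -0.55 was the smallest of the 12 (SE 0.30, limma adjusted p = 0.175). No source used here says whether the libraries kept strand, so MT-ND6 reads cannot be told from reads of its opposite strand. The difference in change between MT-ND6 and MT-ND1 was not tested.

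Complex IV, cytochrome c oxidase, takes its 3 catalytic core subunits from mitochondrial messengers, and 2 of them were called lower. MT-CO1 was at 3375 and 3116 RPKM in induced libraries, against 6702 and 5598 RPKM in controls (log2 change -0.92, SE 0.30, limma adjusted p = 0.0333). MT-CO3, at 4319 and 7353 RPKM in induced libraries and 10088 and 12356 RPKM in controls, was the most abundant per length in the controls (log2 change -0.99, SE 0.35, limma adjusted p = 0.0469). MT-CO2 was at 4572 and 6455 RPKM in induced libraries and 7225 and 10758 RPKM in controls, and did not pass the test (log2 change -0.70, limma adjusted p = 0.134). MT-CYB, the mitochondrially encoded subunit of complex III, was at 1655 and 2009 RPKM in induced libraries and 2618 and 3537 RPKM in controls (log2 change -0.74, limma adjusted p = 0.0792). None of these groups overlapped, and both induced libraries lay below both controls in 45.8% of all tested genes. Neither MT-CO1 nor MT-CO3 passed the test with any 1 library left out: limma adjusted p lay between 0.0797 and 0.187 for MT-CO1 and between 0.0543 and 0.417 for MT-CO3. Neither passed after TMM scaling (adjusted p = 0.114 for MT-CO1 and 0.135 for MT-CO3).

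ATP synthase takes its proton channel subunit from MT-ATP6 and a small peripheral subunit from MT-ATP8, which are read from 1 bicistronic messenger. The reading frames overlap: the last 46 bases of MT-ATP8 (207 bases) are also the first 46 of MT-ATP6 (681 bases) in GENCODE release 29. The shared stretch is shown because reads that lie across it belong to both genes. Capitals mark the start codon of MT-ATP6 and the stop codon of MT-ATP8, which lie in different frames.
MT-ATP8 and MT-ATP6 overlap: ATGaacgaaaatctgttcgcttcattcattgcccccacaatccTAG
MT-ATP6 was at 3251 and 1958 RPKM in induced libraries, against 6228 and 4365 RPKM in controls, a log2 change of -1.05 (SE 0.35, limma adjusted p = 0.0356). Both induced libraries were below both controls, and the call was lost without induced 2 (adjusted p = 0.308), without control 1 (0.234), without control 2 (0.0761) and after TMM scaling (0.102). MT-ATP8 was listed at 13.6 RPKM in induced 2 and at 20.8 and 12.9 RPKM in controls 1 and 2. These rest on 45 reads in induced 2 (95% Poisson interval of the level 9.93 to 18.2 RPKM), 81 reads in control 1 (16.5 to 25.9 RPKM) and 42 reads in control 2 (9.32 to 17.5 RPKM), intervals that cover counting error only. Induced 2 lay between the controls, and with 1 induced value MT-ATP8 has no test. Its level was far under that of MT-ATP6, which lies on the same messenger. No source used here says how reads shared by overlapping genes were counted, so the levels of this pair are uncertain.

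The messengers varied between replicates in a way that both groups shared. Library 2 over library 1 gave an RPKM ratio of 1.95 for MT-ND4L in the induced pair and 1.86 in the control pair. For MT-ATP6 the ratio was 0.602 in the induced pair and 0.701 in the control pair, and for MT-ND3 it was 0.647 in the induced pair and 0.669 in the control pair. All 12 messengers lay on the same side of 1 in both pairs. Across the 12 genes the log2 ratios of the groups gave Pearson's r = 0.92 and Spearman's rho = 0.82. These are descriptions across genes of 4 libraries, which share a number, depth and transcripts between them. The source of this difference between libraries was not tested.

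**Figure D3:**
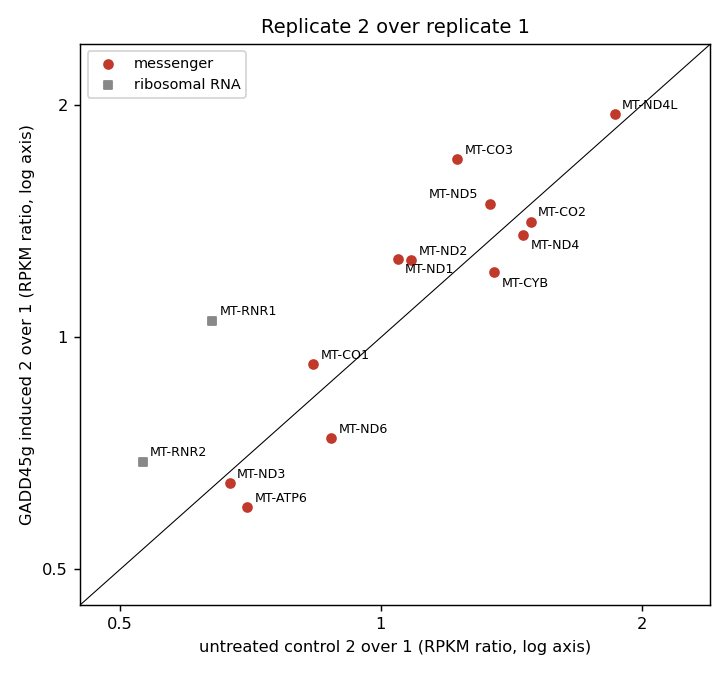
Ratio of library 2 to library 1 in RPKM for the 12 messengers (red) and the 2 ribosomal RNAs (grey), with the induced pair on the vertical and the control pair on the horizontal axis, both logarithmic; the line marks equal ratios. The messengers run along the line from MT-ATP6 and MT-ND3 below 1 to MT-ND4L near 1.9 in both pairs.

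The RNAs of the mitochondrial ribosome were also lower on average, without passing the test. MT-RNR1, the small subunit RNA, was at 813 and 854 RPKM in induced libraries and 1391 and 888 RPKM in controls (log2 change -0.42, limma adjusted p = 0.306). MT-RNR2, the large subunit RNA, was at 6560 and 4527 RPKM in induced libraries and 10686 and 5676 RPKM in controls, with overlapping groups (log2 change -0.52, limma adjusted p = 0.307). The summed messengers stood at 3.80 and 6.38 times the summed ribosomal RNAs in induced libraries and at 4.32 and 9.29 times in control libraries, which overlap. Of the 22 transfer RNA genes 14 were listed at 0 in all 4 libraries, and of the 8 tested 1 passed lower. That gene, MT-TY, the tyrosine transfer RNA, rested on 2 and 1 reads in induced libraries and 22 and 2 reads in controls (log2 change -1.72, limma adjusted p = 0.0486). Without control 1 its log2 change was -0.38 (adjusted p = 0.289), and it was not called without either induced library. The transfer RNA with the highest level, MT-TP (proline), was at 1362 and 2990 RPKM in induced libraries and 3132 and 4802 RPKM in controls, and did not pass (log2 change -0.94, limma adjusted p = 0.0864).

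The transcription machinery of the mitochondrial genome was lower in part. Transcription starts when TFAM bends the promoter DNA and TFB2M opens it for the polymerase POLRMT; TEFM then keeps the polymerase elongating, and MTERF3 acts on transcription and on ribosome assembly. TFB2M (ENSG00000162851.6) was at 2.63 and 2.47 RPKM in induced libraries, against 9.60 and 6.76 RPKM in controls. Its groups were far apart relative to their spread, with a log2 change of -1.35 (SE 0.23, limma adjusted p = 0.00104). TFAM (ENSG00000108064.6), which also packages the mitochondrial DNA, was at 4.09 and 3.98 RPKM in induced libraries and 14.6 and 7.40 RPKM in controls. The controls differed widely from each other, both lay above the induced libraries, and the log2 change was -1.18 (SE 0.28, limma adjusted p = 0.00734). Without control 1 the log2 change of TFAM was -0.74 (adjusted p = 0.0512). TFAM also lost its call without the filter on low values (limma adjusted p = 0.112). MTERF3 was at 6.46 and 7.37 RPKM in induced libraries and 13.9 and 16.2 RPKM in controls (log2 change -1.02, SE 0.22, limma adjusted p = 0.00424).

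POLRMT, TFB1M and TEFM did not pass the test. POLRMT was at 11.9 and 7.17 RPKM in induced libraries and 9.27 and 12.3 RPKM in controls: induced 1 was above control 1 and induced 2 below control 2. The log2 change of POLRMT came to -0.18 (SE 0.27, limma adjusted p = 0.619), and to 0.06 after TMM scaling. TFB1M, which methylates the small ribosomal RNA of the mitochondrion, was at 7.10 and 7.32 RPKM in induced libraries and 8.82 and 7.20 RPKM in controls. TFB1M had a log2 change of -0.13 (SE 0.22, limma adjusted p = 0.676), and of 0.11 after TMM scaling. TEFM was at 2.99 and 3.07 RPKM in induced libraries and 4.38 and 5.08 RPKM in controls, which did not overlap (log2 change -0.51, limma adjusted p = 0.0826). A p that misses the threshold does not show that these genes were the same in both groups.

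**Figure D4:**
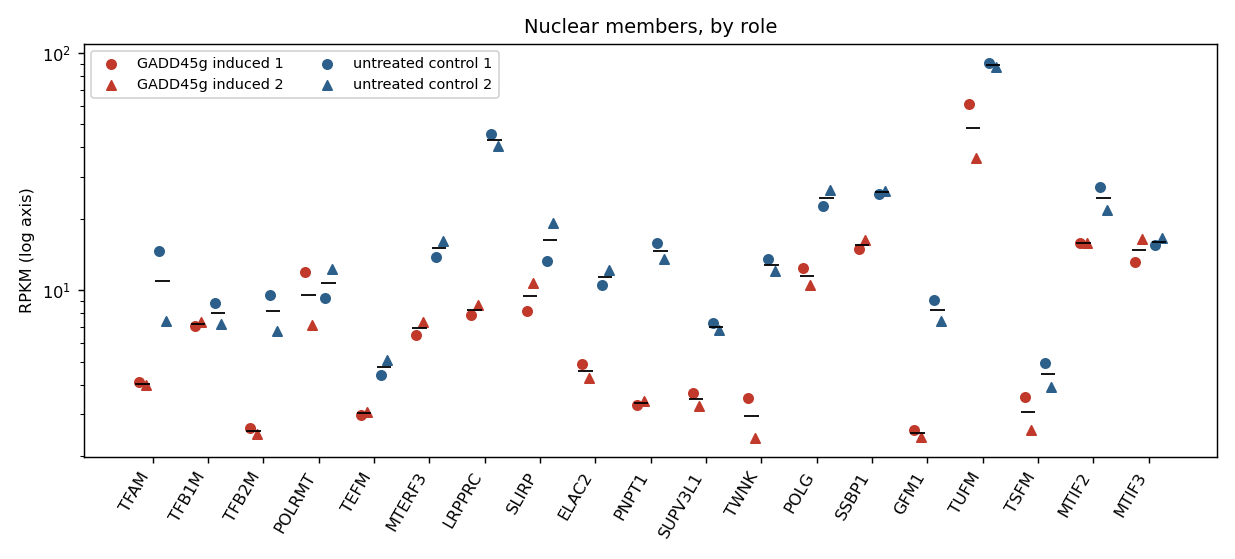
RPKM (logarithmic axis) of the 19 tested nuclear members in each library, ordered by role from transcription to translation; black bars are group means. Induced libraries (red) lie below controls (blue) for 16 of the 19, beside 45.8% of all tested genes. The groups of TFB1M, POLRMT and MTIF3 overlap. LRPPRC shows the widest gap, at 7.89 and 8.65 RPKM in induced against 45.6 and 40.6 RPKM in control libraries.

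TFAM, TFB2M, TFB1M and POLRMT moved unequally, and their promoters are shown to set them side by side. Nuclear genes of this system are textbook targets of the factor NRF1 and of ETS family factors. The sequences are the 250 bases before the gene's start in RefSeq (GRCh38.p14), 5′ to 3′ on the gene's strand: TFAM at chr10:58385160-58385409 (+), TFB2M at chr1:246566262-246566511 (−), TFB1M at chr6:155314485-155314734 (−) and POLRMT at chr19:633538-633787 (−). Capitals mark matches, on either strand, to the NRF1 motif GCGCANGCG and the ETS motif CCGGAAG; NRF1 matches that overlap run together.
TFAM: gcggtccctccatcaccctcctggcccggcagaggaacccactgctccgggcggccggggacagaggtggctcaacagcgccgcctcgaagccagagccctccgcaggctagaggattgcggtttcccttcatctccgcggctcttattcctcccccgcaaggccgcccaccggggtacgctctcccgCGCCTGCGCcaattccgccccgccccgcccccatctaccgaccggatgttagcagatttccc
TFB2M: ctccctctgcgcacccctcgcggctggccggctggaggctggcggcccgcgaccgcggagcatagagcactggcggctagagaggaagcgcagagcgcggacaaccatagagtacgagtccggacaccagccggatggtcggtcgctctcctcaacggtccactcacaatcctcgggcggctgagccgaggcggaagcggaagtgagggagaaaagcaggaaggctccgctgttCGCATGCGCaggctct
TFB1M: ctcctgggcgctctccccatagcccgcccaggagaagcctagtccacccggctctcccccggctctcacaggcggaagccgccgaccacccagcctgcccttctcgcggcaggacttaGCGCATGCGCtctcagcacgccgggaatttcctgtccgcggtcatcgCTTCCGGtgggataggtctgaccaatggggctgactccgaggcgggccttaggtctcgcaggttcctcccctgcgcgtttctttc
POLRMT: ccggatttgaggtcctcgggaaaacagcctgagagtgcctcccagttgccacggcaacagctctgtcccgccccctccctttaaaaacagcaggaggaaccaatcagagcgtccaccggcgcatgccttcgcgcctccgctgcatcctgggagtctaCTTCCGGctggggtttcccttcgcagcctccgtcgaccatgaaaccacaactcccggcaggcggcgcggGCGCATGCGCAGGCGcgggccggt
All 4 held the NRF1 motif, the lower-called TFAM and TFB2M as well as TFB1M and POLRMT, which did not pass the test. TFB1M and POLRMT also held the ETS motif. Over windows of 300 bases, 250 before and 50 after the start, 18 nuclear members were matched in RefSeq, and TWNK and MTERF3 are named only. The NRF1 motif was in 5 of the 18, which are the 4 shown and POLG2, against 7.52% of 35116 promoters. TEFM, a transcription gene that is not shown, held no NRF1 motif. The ETS motif was in 10 of the 18, against 10.3% of all promoters. The E-box CACGTG was in 0 of the 18 and in 7.26% of all promoters. Of the 11 matched members called lower, 2 held the NRF1 motif and 5 the ETS motif, and of the 6 tested and not called, 2 held the NRF1 motif and 4 the ETS motif. A match describes letters in a window and is no evidence of binding.

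The genes that stabilise, process and degrade mitochondrial RNA were all called lower, 5 of 5, beside 26.7% of all tested genes. After TMM scaling 4 of the 5 were called lower, beside 18.8% of all genes. LRPPRC (ENSG00000138095.14), which binds mitochondrial messengers and keeps them stable and polyadenylated, was at 7.89 and 8.65 RPKM in induced libraries, against 45.6 and 40.6 RPKM in controls. The difference was 5.21-fold lower in induced cells on group means and the largest decrease of all tested members (log2 change -2.25, SE 0.22, limma adjusted p = 4.07e-05). SLIRP, the partner of LRPPRC in that complex, was at 8.20 and 10.7 RPKM in induced libraries and 13.3 and 19.2 RPKM in controls. That is a log2 change of -0.71 (SE 0.25, limma adjusted p = 0.045). SLIRP did not pass without induced 1 (adjusted p = 0.265), without induced 2 (0.0733), without control 2 (0.21) or after TMM scaling (0.178).

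PNPT1 and SUPV3L1 form the complex that degrades mitochondrial RNA, and ELAC2 trims the ends of transfer RNAs cut from the long primary transcripts. PNPT1 (ENSG00000138035.10) was at 3.27 and 3.42 RPKM in induced libraries and 15.8 and 13.5 RPKM in controls, 4.38-fold lower in induced cells (log2 change -1.85, SE 0.22, limma adjusted p = 0.000101). SUPV3L1, its helicase, was at 3.69 and 3.26 RPKM in induced libraries and 7.27 and 6.77 RPKM in controls (log2 change -0.84, SE 0.21, limma adjusted p = 0.00933). The SUPV3L1 call was lost without induced 1 (adjusted p = 0.0526) and without induced 2 (0.0936). ELAC2 was at 4.90 and 4.25 RPKM in induced libraries and 10.5 and 12.2 RPKM in controls (log2 change -1.15, SE 0.22, limma adjusted p = 0.00198). In each of these genes the induced libraries lay together, well under both controls.

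Replication of the mitochondrial genome uses the polymerase POLG with its accessory subunit POLG2, the helicase TWNK and the single-strand binding protein SSBP1. TWNK (ENSG00000107815.3) was at 3.53 and 2.37 RPKM in induced libraries and 13.6 and 12.1 RPKM in controls, 4.35-fold lower in induced cells (log2 change -1.82, SE 0.23, limma adjusted p = 0.00017). POLG was at 12.4 and 10.5 RPKM in induced libraries and 22.7 and 26.4 RPKM in controls (log2 change -1.04, SE 0.23, limma adjusted p = 0.00436). SSBP1 was at 14.9 and 16.3 RPKM in induced libraries and 25.6 and 26.1 RPKM in controls (log2 change -0.70, SE 0.22, limma adjusted p = 0.0293). All 3 tested genes of this role were called lower, beside 26.7% of all tested genes. Their groups did not overlap, and both induced libraries lay below both controls in 45.8% of all tested genes. After TMM scaling 2 of the 3 were called lower, beside 18.8% of all genes. The SSBP1 call was lost with any 1 library left out (limma adjusted p between 0.0692 and 0.156) and after TMM scaling (0.149). POLG2 was listed at 7.02 RPKM in induced 2 (380 reads), below 11.05 and 8.90 RPKM in controls 1 and 2 (703 and 473 reads), and has no test with 1 induced value. Copies of mitochondrial DNA were not measured.

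Translation on the mitochondrial ribosome is started by MTIF2 and MTIF3, and TUFM, TSFM and GFM1 carry elongation. GFM1 (ENSG00000168827.10), the elongation factor that moves the ribosome along, was at 2.57 and 2.41 RPKM in induced libraries and 9.07 and 7.39 RPKM in controls (log2 change -1.40, SE 0.22, limma adjusted p = 0.000595). TUFM, which delivers transfer RNAs and was the most abundant nuclear member per length, was at 61.0 and 35.98 RPKM in induced libraries and 91.0 and 87.1 RPKM in controls (log2 change -0.91, SE 0.28, limma adjusted p = 0.0263). The induced libraries differed from each other more than the controls did. TUFM did not pass without induced 2 (adjusted p = 0.243), without control 1 (0.127), without control 2 (0.102) or after TMM scaling (0.095). TSFM, which recharges TUFM, was at 3.55 and 2.58 RPKM in induced libraries and 4.93 and 3.91 RPKM in controls (log2 change -0.42, limma adjusted p = 0.174). MTIF2 was at 15.8 and 15.9 RPKM in induced libraries and 27.2 and 21.9 RPKM in controls (log2 change -0.60, limma adjusted p = 0.0619). MTIF3 was at 13.2 and 16.4 RPKM in induced libraries and 15.5 and 16.6 RPKM in controls, with overlapping groups and a log2 change of -0.11 that was 0.14 after TMM scaling (limma adjusted p = 0.726 unscaled). In the main fit the initiation factors thus did not pass the test, while 2 of the 3 elongation factors did. Over the main fit and its alternatives, 17 settings, MTIF2 was called in 4 and TUFM in 11. The difference between the roles was not tested.

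Across the 16 alternative settings tried, 8 members were called lower in the main fit and in every alternative: TFB2M, MTERF3, LRPPRC, ELAC2, PNPT1, TWNK, POLG and GFM1. All 8 are nuclear genes. Without the filter on low values 0 of the 12 messengers were called, so none could be among the 8. Calls over all genes fell there from 4185 to 2462. The nuclear members TFAM (limma adjusted p = 0.112), SLIRP (0.162), TUFM (0.139) and SUPV3L1 (0.0543) also lost their calls in that setting. The share of all tested genes called in every setting was not counted. TFB1M, POLRMT, TSFM and MTIF3 were called in none. The summed level of the 19 tested nuclear members was 190 and 164 RPKM in induced libraries and 363 and 349 RPKM in control libraries, a ratio of 0.498.

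Other genes of the same pathway, taken from lists that hold none of the members, were tested in the same fit, beside backgrounds of 26.7% of all genes called lower unscaled and 18.8% after TMM scaling. Of 15 tested genes of mitochondrial DNA maintenance, 5 were called lower and 0 higher (median log2 change -0.35), a share near the background. The lower ones included ATAD3A, an inner membrane protein linked to the nucleoid, at 5.54 and 3.20 RPKM in induced libraries and 20.1 and 22.6 RPKM in controls (log2 change -2.09, limma adjusted p = 0.000136). TOP1MT, the mitochondrial type I topoisomerase, was at 5.04 and 4.09 RPKM in induced libraries and 18.8 and 24.6 RPKM in controls (log2 change -2.02, limma adjusted p = 9.71e-05). ATAD3B (log2 change -1.30) and DNA2 (-1.12) were also called lower; ATAD3A and ATAD3B are near-identical copies whose reads may be split uncertainly. DGUOK, a kinase that salvages nucleosides for mitochondrial DNA, was at 39.3 and 35.8 RPKM in induced libraries and 21.8 and 27.1 RPKM in controls, and did not pass unscaled (log2 change 0.61, limma adjusted p = 0.064). After TMM scaling 4 genes of this list were called lower and 3 higher, DGUOK among them (log2 change 0.87, adjusted p = 0.0136).

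Of 32 tested genes of mitochondrial RNA processing and modification, 15 were called lower and 0 higher (median log2 change -0.60), beside 26.7% of all genes lower. After TMM scaling 10 were called lower and 1 higher, beside 18.8% of all genes lower. PUS1, which makes pseudouridine in transfer RNAs, was at 1.77 and 1.20 RPKM in induced libraries and 7.10 and 8.81 RPKM in controls (log2 change -1.85, limma adjusted p = 0.000145). RPUSD4, a pseudouridine synthase of the mitochondrion (log2 change -1.52), MTPAP, its poly(A) polymerase (-1.24), and FASTKD2, an RNA-binding protein of the mitochondrial granules (-1.21), were also called lower. Among 17 further translation genes 7 were called lower and 0 higher (median log2 change -0.46), and after TMM scaling 3 lower and 1 higher, a share of lower calls near the 18.8% of all genes. They included QRSL1, a subunit of the amidotransferase that makes glutaminyl transfer RNA (log2 change -1.31, limma adjusted p = 0.0007), and GUF1 (-1.11). RMND1 (-1.04) and MRPL58, a peptidyl-tRNA hydrolase of the large ribosomal subunit (-0.76), were called as well. MRPL58 did not pass the limma test without induced 1 (adjusted p = 0.108), without induced 2 (0.0861) or without control 2 (0.0646).

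**Figure D5:**
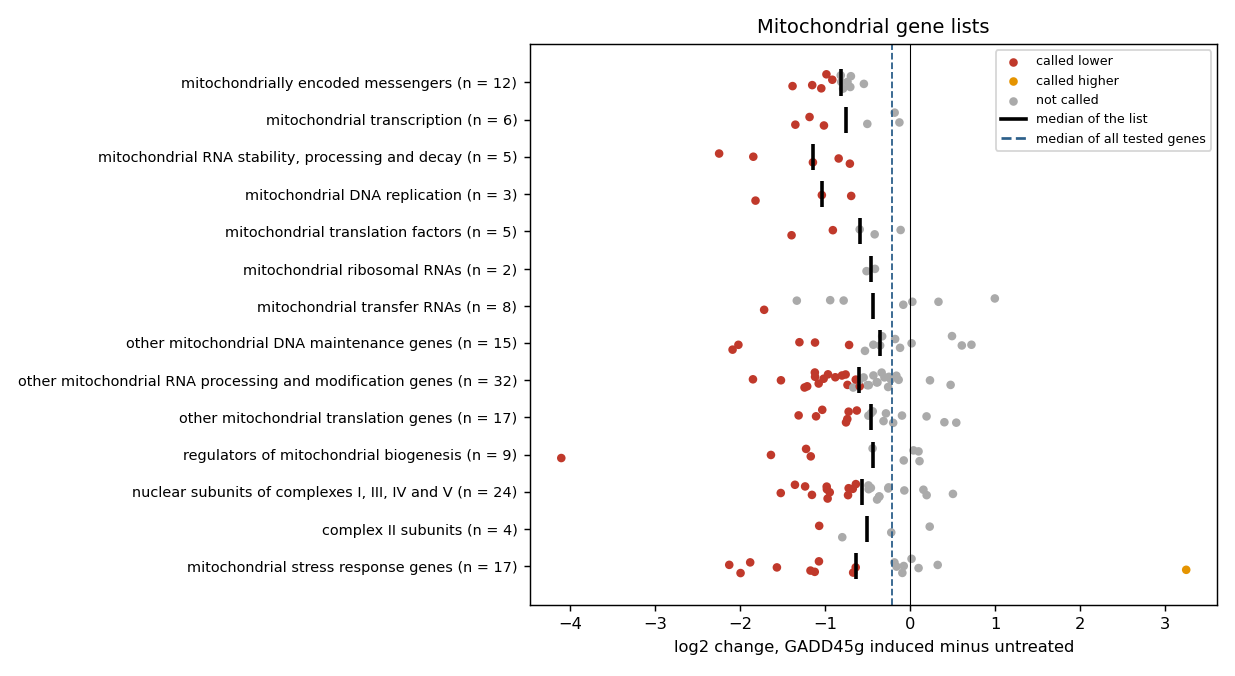
Log2 change (induced minus untreated) of the tested genes of 14 mitochondrial lists, 1 point per gene, with the list's median as a black bar and the median of all tested genes (-0.21) as a dashed line; points are spread vertically at random. Called genes lie almost wholly to the left, with GDF15 at 3.24 the 1 called higher, and MYC at -4.10 the farthest left.

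Among 9 tested regulators of mitochondrial biogenesis, 4 were called lower and 0 higher, beside 26.7% of all tested genes lower and 12.2% higher. Their median log2 change was -0.44. After TMM scaling 4 were called lower and 0 higher, beside 18.8% of all genes lower and 18.3% higher. The transcription factor MYC was at 1.59 and 1.07 RPKM in induced libraries, against 35.1 and 42.9 RPKM in controls (log2 change -4.10, SE 0.23, limma adjusted p = 1.05e-06). All 3 coactivators of the PGC-1 family were called lower in the main fit. PPARGC1A and PPARGC1B averaged 0.303 and 0.705 RPKM in induced cells. They passed the filter of 1 RPKM only through the control libraries, so their calls are no independent evidence of a decrease. Without the filter on low values PPRC1 (limma adjusted p = 0.0624) and PPARGC1B (0.0539) were not called. PPRC1 was at 2.33 and 2.94 RPKM in induced libraries and 7.29 and 14.3 RPKM in controls (log2 change -1.64, limma adjusted p = 0.00125). PPARGC1A was at 0.332 and 0.274 RPKM in induced libraries and 1.91 and 2.20 RPKM in controls (log2 change -1.23, limma adjusted p = 0.0014), and PPARGC1B had a log2 change of -1.17 (limma adjusted p = 0.00253). NRF1, the factor whose motif was counted above, was at 5.50 and 5.06 RPKM in induced libraries and 5.32 and 4.92 RPKM in controls (log2 change 0.04, limma adjusted p = 0.906). GABPA, the ETS family subunit of the same pathway, was at 12.1 and 14.8 RPKM in induced libraries and 19.1 and 17.98 RPKM in controls (log2 change -0.44, limma adjusted p = 0.146).

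The nuclear partners of the mitochondrial messengers in the respiratory complexes were called lower in part. Of 24 tested nuclear subunits of complexes I, III, IV and V, 12 passed the test lower and 0 higher (median log2 change -0.57). Among all tested genes 26.7% were called lower. After TMM scaling 7 of the subunits were called lower and 1 higher, beside 18.8% of all genes lower and 18.3% higher. Their summed level was 903 and 749 RPKM in induced libraries and 1309 and 1144 RPKM in control libraries, a ratio of 0.673, beside 0.550 for the mitochondrial messengers, a difference that was not tested. The messengers stood at 30.997 and 45.8 times these subunits in induced libraries and at 39.9 and 53.3 times in control libraries, so the groups overlap. ATP5MC1 (log2 change -1.52), UQCRFS1 (-1.36), ATP5F1A (-1.24) and NDUFS3 (-1.16) were called lower, while UQCRC1, at 163 and 105 RPKM in induced libraries and 96.5 and 88.2 RPKM in controls, had a log2 change of 0.50 (limma adjusted p = 0.179). Complex II has no mitochondrially encoded subunit. Of its 4 genes SDHB was called lower, at 13.9 and 13.7 RPKM in induced libraries and 30.4 and 29.7 RPKM in controls (log2 change -1.07, limma adjusted p = 0.00314). SDHA (log2 change 0.23), SDHC (-0.22, and 0.04 after TMM scaling) and SDHD (-0.80) did not pass.

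Most genes of the mitochondrial stress response had a negative change, and 1 was called higher. Of 17 tested, 9 were called lower and 1 higher, beside 26.7% lower and 12.2% higher among all tested genes. The median log2 change was -0.64, and 13 of the 17 were negative, beside 62.1% of all tested genes. After TMM scaling 7 were called lower and 1 higher, beside 18.8% of all genes lower and 18.3% higher. GDF15, a secreted stress cytokine, was at 54.6 and 30.4 RPKM in induced libraries and 5.51 and 1.99 RPKM in controls (log2 change 3.24, SE 0.37, limma adjusted p = 9.07e-05). The transcription factors ATF4 and DDIT3 did not pass: ATF4 had a log2 change of -0.19, DDIT3 of 0.10 and the pseudokinase TRIB3 of -0.08, with limma adjusted p of 0.595 for ATF4, 0.758 for DDIT3 and 0.81 for TRIB3. ATF4 was at 0.08 and TRIB3 at 0.18 after TMM scaling. ATF5, another transcription factor of the response, was called lower (log2 change -0.67, limma adjusted p = 0.048), but not after TMM scaling (0.196) or with any 1 library left out (0.0535 to 0.336). The serine synthesis genes PSAT1 (log2 change -2.13, limma adjusted p = 0.000318) and PHGDH (-1.88, limma adjusted p = 0.00012) were called lower. HSPD1, the mitochondrial chaperonin, was at 52.0 and 57.4 RPKM in induced libraries and 240 and 204 RPKM in controls (log2 change -2.00, limma adjusted p = 0.000148).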

How the data were processed

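Total RNA of 4 MOLM-13 libraries was sequenced with Illumina protocols, per the labels' protocols, which state neither strand nor RNA selection. The authors deposited RPKM values, per the file headers, with 1 row for each Ensembl gene ID. TopHat, Cuffnorm, Cuffdiff and the build hg19 are named in the submitters' processing notes. The file used for induced 1 breaks off after 27332 IDs, so tests cover the genes that all 4 files list. A table of gene names gave symbols to 51996 IDs, and rows of 1 symbol were summed.

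Low values (up to 20 reads) were multiples of 1 read within 0.01 reads, which gave the library depths; reads could be recovered for 98.4% of tested genes. A filter at a mean of 1 RPKM left 10771 genes. These were compared with limma 3.58.1 (R 4.3.3; lmFit, eBayes with trend) on log2(RPKM + 1), two-sided, p adjusted over all genes after Benjamini and Hochberg, with a threshold of 0.05 and 2 residual and 8.72 prior degrees of freedom. Fold changes on that scale understate changes of low genes. Sums, SDs and ratios were computed on RPKM with pandas 2.3.3.

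Groups came from the treatment labels, and library numbers from the title suffix. Alternatives were other pseudocounts (0.1, 5), filters (none, 5 RPKM), TMM, upper quartile, quantile and non-mitochondrial total scaling, eBayes without trend or robust, a replicate block, each library left out, and, added after seeing the data, limma's voom on recovered reads. The members and gene lists were chosen with earlier results of these data known. Beyond all members and GADD45G, named genes are up to 4 per list with the smallest adjusted p. DGUOK, UQCRC1, NRF1, GABPA, ATF4, ATF5, DDIT3, TRIB3, ITGAM and LYZ were added after their values were seen. The labels do not say from which cultures the replicate experiments came, and p-values measure the spread between these libraries only. Coordinates are given only for RefSeq promoters, since the files' build differs from the reference.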

Additional observations from a re-analysis of the deposited data

How the results depend on the processing

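Of 494 alternative fits of the 31 tested members, 403 kept direction and side of the threshold and 52 kept direction but lost the call. A further 29 gained a call and 10 turned direction. In every setting 28 members were lower, a share that was not counted over all tested genes. Without the filter on low values 2462 genes and 9 members were called, against 4185 and 18 with it, and with 20689 genes tested. Leaving out 1 library gave between 2597 and 3582 calls over all genes and between 11 and 12 among the members; the arm of 1 library is then assumed to vary like the other. The ratio of summed messengers was 0.665 with TMM, 0.623 with upper quartile scaling and 0.4995 with a common total outside mitochondrial DNA, and lay between 0.494 and 0.606 with 1 library left out. No call rested on the members whose direction turned. TFB1M was at log2 0.11 with TMM, 0.030 with upper quartile and 0.095 with quantile scaling (-0.26 to 0.0017 with 1 library left out). POLRMT was at 0.062 with TMM (-0.51 to 0.14 with 1 left out). MTIF3 was at 0.14 with TMM, 0.054 with upper quartile and 0.049 with quantile scaling (-0.26 to 0.036 with 1 left out). Outside the members, SDHC was at 0.036 with TMM; with 1 library left out MT-TT ranged from -1.72 to 0.15 and SDHA from -0.10 to 0.56. The cause of these turns was not tested. With voom on recovered reads 25 members were called. The replicate block gave 4987 genes and 26 members called, among them 12 of 12 messengers. Deviations of same-numbered libraries correlated at 0.349 over the tested genes. The labels do not say what the numbers mark, and with 2 pairs it was not tested whether they are a pairing. Depth limits MT-TY, at 1 to 22 reads a library; the cause of the low MT-ATP8 level and of the 14 transfer RNAs listed at 0 was not tested.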

Other observations

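The nuclear genome carries copies of mitochondrial sequence, and reads of mitochondrial messengers can be assigned to them. These genes were chosen after the values were seen. The 32 pseudogenes of mitochondrial messengers listed in all 4 files summed to 12.4 and 16.7 RPKM in induced libraries and 40.2 and 59.8 RPKM in control libraries. MTCO3P12 alone made up most of it, at 10.6 and 15.2 RPKM in induced libraries and 38.1 and 57.3 RPKM in control libraries. In the 3 complete files 389 such pseudogenes summed to 674 RPKM in induced 2 and to 835 and 1184 RPKM in controls 1 and 2. One of them, MTCO1P12, made up most of that sum, at 533 RPKM in induced 2 and 607 and 958 RPKM in controls 1 and 2. MT-CO1 itself was at 3375 and 3116 RPKM in induced libraries and 6702 and 5598 RPKM in control libraries. No source used here says how reads that match both the gene and the copy were assigned.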
